A study of Mus musculus with 2 samples.

Results

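Expression of 10 genes that receive, carry, block or read out Wnt signals was compared between D16 and D351, 2 clones of mouse mesoangioblasts. The genes are the Frizzled receptors Fzd1, Fzd4, Fzd5 and Fzd6, the ligand carrier Wls, the secreted antagonists Sfrp1, Sfrp5, Wif1 and Dkk3, and the target gene Axin2. They were chosen by symbol from probe sets annotated with exactly 1 gene symbol, and the choice was made with the difference between these clones already known. In all, 11 of 12477 probe sets on the array stood for them, and 9 of the 10 genes had 1 probe set each.

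Mesoangioblasts are vessel-associated progenitors that can form several mesodermal tissues. Both clones came from the dorsal aorta of C57BL6 embryos at embryonic day 9.5, which was kept as an explant for 5 days before single cells were plated by limiting dilution. Cloning took place on mitomycin C-treated embryonic fibroblasts in RPMI with 20% fetal calf serum, and the clones were then expanded on gelatin without a stated treatment or genetic change. Each clone is a line grown from limiting dilution and was measured on 1 Affymetrix MG-U74B array, so no difference between them could be set against the spread between cultures and no test was possible.

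Wnt ligands are lipid-modified proteins that need the membrane protein Wls to reach the cell surface. They bind the cysteine-rich domain of Frizzled receptors, and with the co-receptors Lrp5 or Lrp6 this keeps beta-catenin from being degraded, so that it acts with TCF/LEF factors on target genes. Sfrp proteins carry a Frizzled-like cysteine-rich domain and hold ligands outside the cell, and Wif1 also binds ligands directly. Axin2 encodes a scaffold of the complex that degrades beta-catenin and is induced by beta-catenin itself, which makes its transcript a common readout of the canonical pathway. In the vessel wall and its progenitors these signals are known for roles in growth, vessel patterning and smooth muscle differentiation.

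Promoter windows of 7 of the 10 genes were found in RefSeq (GRCm38.p6), each running from 250 bases before to 50 bases after an annotated start. The 5 printed here belong to a receptor with a higher signal in D16 (Fzd4), receptors with a higher signal in D351 (Fzd5 and Fzd1), the ligand carrier and the target readout. Capitals mark the GC box GGGCGG and the TCF/LEF core CTTTG on either strand, and no GC box overlapped a TCF/LEF core.
Fzd4 promoter, chr7:89404116-89404415, plus strand: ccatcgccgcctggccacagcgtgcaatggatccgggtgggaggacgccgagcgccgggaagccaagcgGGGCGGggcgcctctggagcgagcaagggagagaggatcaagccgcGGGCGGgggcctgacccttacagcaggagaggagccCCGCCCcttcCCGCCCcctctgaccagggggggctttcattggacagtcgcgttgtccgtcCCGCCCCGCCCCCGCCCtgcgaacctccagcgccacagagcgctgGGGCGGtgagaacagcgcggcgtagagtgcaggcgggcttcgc
Fzd5 promoter, chr1:64737701-64738000, minus strand: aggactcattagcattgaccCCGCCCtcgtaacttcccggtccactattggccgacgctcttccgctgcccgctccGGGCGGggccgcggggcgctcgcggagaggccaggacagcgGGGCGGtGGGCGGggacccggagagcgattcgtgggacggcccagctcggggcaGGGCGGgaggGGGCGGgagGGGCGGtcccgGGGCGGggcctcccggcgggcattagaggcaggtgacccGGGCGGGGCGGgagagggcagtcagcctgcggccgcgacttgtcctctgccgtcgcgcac
Fzd1 promoter, chr5:4758167-4758466, minus strand: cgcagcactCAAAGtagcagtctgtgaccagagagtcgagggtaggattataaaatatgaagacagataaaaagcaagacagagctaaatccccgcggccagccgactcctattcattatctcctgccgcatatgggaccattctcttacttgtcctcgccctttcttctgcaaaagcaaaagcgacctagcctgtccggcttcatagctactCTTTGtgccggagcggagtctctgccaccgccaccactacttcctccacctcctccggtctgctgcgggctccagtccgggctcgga
Wls promoter, chr3:159839400-159839699, plus strand: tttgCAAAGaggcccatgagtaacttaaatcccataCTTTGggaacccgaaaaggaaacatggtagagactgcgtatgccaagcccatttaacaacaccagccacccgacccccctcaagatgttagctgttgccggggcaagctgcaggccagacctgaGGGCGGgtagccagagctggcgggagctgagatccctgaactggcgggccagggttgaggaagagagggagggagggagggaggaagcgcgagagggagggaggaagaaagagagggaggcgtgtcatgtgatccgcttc
Axin2 promoter, chr11:108920099-108920398, plus strand: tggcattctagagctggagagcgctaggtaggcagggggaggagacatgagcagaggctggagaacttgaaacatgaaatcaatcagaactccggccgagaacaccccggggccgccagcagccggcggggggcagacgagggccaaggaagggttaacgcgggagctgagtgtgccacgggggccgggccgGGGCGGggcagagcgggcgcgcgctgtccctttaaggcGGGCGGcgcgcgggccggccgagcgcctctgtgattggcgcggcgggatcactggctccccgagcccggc

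Fzd5 had 10 GC boxes and 38 CpG dinucleotides, and Fzd4 had 8 GC boxes and 32 CpG dinucleotides, against a median of 7 CpG dinucleotides over all 32851 windows of this length. Neither window held a TCF/LEF core. Fzd1, with a higher signal in D351 like Fzd5, had 0 GC boxes, 16 CpG dinucleotides, 2 TCF/LEF cores and 1 TATAAA match. Wls had 1 GC box and 2 TCF/LEF cores, and Axin2 had 2 GC boxes, 31 CpG dinucleotides and no TCF/LEF core in these letters. Among all windows, 35.7% held a GC box, 53.9% a TCF/LEF core and 13.6% a TATAAA match. A match describes letters in a window and shows no binding.

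The summed signal was 653854 for D16 and 646285 for D351 on a linear intensity scale, and the number of arrays limits the precision of every value. A floor of 16.8, the 50th percentile of the pooled signals of both arrays, was set, and signals below it were not interpreted. For ratios of D351 over D16, lower values were replaced by the floor, and where that was done for 1 clone the ratio is given as a bound (at least or at most). Ratios of 3' to 5' control probe sets for Gapdh and beta-actin lay between 1.09 and 1.57, higher in D16 than in D351 for both genes. Of 9 bacterial and phage spike controls at the floor on at least 1 array, 8 were higher in D16, with a median of 1.44-fold. Of 14 listed mesoangioblast and vessel-progenitor markers 4 were on this array and 3 reached the floor, so the labelled cell type could be checked in small part. Cd44, an adhesion receptor of mesenchymal cells, read 1164.5 in D16 and 1092.5 in D351, while the pericyte proteoglycan gene Cspg4 read 83.3 and 26.1. Abcg2 lay close to the floor with 16.7 and 17.7, and Itga4 was under it in both clones with 1.4 and 0.8.

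Of the 10 genes, 6 were higher in D351 by 2-fold or more (Sfrp1, Fzd6, Fzd5, Dkk3, Fzd1 and Wls), 1 was lower there by 2-fold or more (Fzd4), and 3 were under the floor in both clones (Sfrp5, Wif1 and Axin2). Over all 4916 genes with a ratio, 9.5% were higher in D351 by 2-fold or more and 8.58% lower by as much, with a median log2 ratio of -0.01. Since the genes were chosen on this contrast, their count is a description and carries no weight as evidence. The 7 genes with a ratio passed only because at least 1 clone reached the floor.

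**Figure D1:**
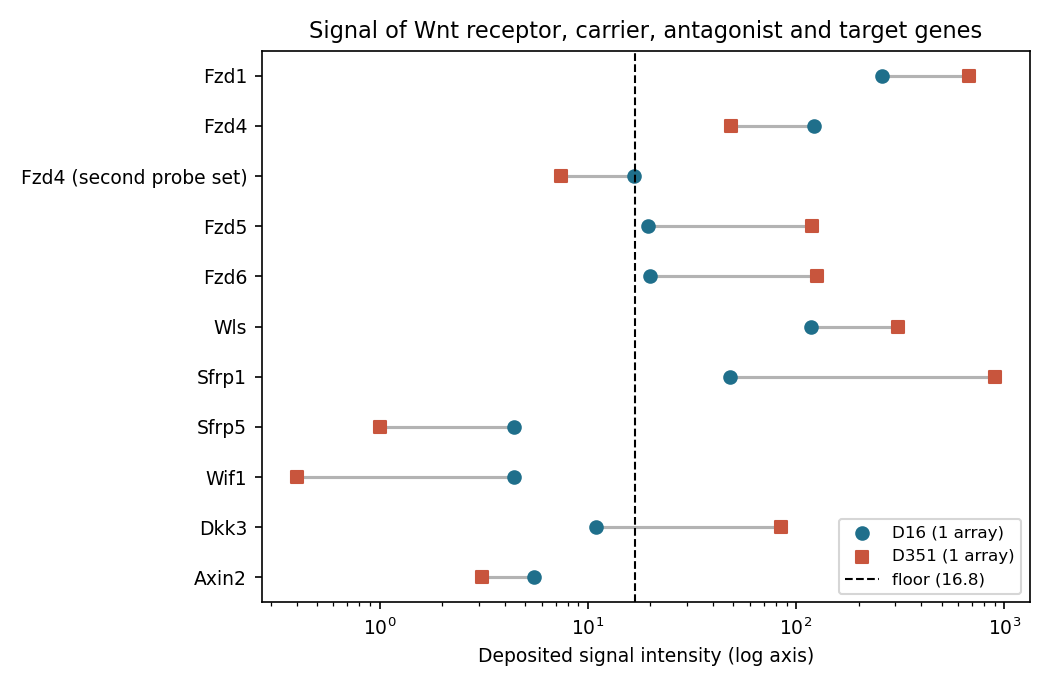
Deposited signal of each probe set in D16 (circles) and D351 (squares) on a log axis, 1 array per clone, with the floor of 16.8 as a dashed line. Sfrp1 spans 48.2 to 900.3, Fzd4 runs the other way, and Sfrp5, Wif1 and Axin2 lie left of the floor in both clones.

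The chosen Frizzled receptors did not all differ in the same direction. Fzd6, a receptor best known for planar cell polarity and hair patterning, had a signal of 20.0 in D16 and 125.4 in D351. That is 6.27-fold higher in D351, at a log2 ratio of 2.65. Fzd5, which couples to canonical signalling in the eye, gut and yolk sac vessels, had 19.4 in D16 and 118.9 in D351. Its signal was 6.13-fold higher in D351 (log2 2.62). Both receptors thus lay slightly above the floor in D16 and well above it in D351, and their ratios depend on how low signals are treated. With the floor at the 75th percentile (53.5) they became bounds, at log2 ratios of at least 1.23 for Fzd6 and at least 1.15 for Fzd5.

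Fzd1, a receptor that can relay canonical signals, had a signal of 257.4 in D16 and 677.0 in D351, far above the floor in each. It was 2.63-fold higher in D351 (log2 1.40), and none of the floors tried altered that value. Fzd4, the receptor for norrin as well as Wnt ligands and a regulator of retinal vessel growth, had the opposite direction. Its brighter probe set read 122.4 in D16 and 48.8 in D351, which is 2.51-fold lower in D351 (log2 -1.33). The gene's other probe set read 16.7 and 7.4, just short of the floor in D16, and therefore had no ratio. With the floor at the 25th percentile (4.6) it was 2.26-fold lower in D351 (log2 -1.17), the same direction as the brighter probe set. Scaling the arrays to the spike controls, an alternative added after the data were seen, moved Fzd4 to a log2 ratio of -0.80, no longer past 2-fold. The same scaling moved the median of all genes from -0.01 to 0.45, so that Fzd4 stayed below the bulk of genes.

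The 3 other Frizzled genes on the array, named at any value, were all higher in D351. Fzd7, a receptor of stem and progenitor cells, read 29.5 and 76.1, which is 2.58-fold higher in D351 (log2 1.37). Fzd8 read 156.1 and 263.1 (log2 0.75), and Fzd2 read 22.7 and 33.5 (log2 0.56), with another Fzd2 probe set at 0.8 and 0.4, under the floor on both arrays. Fzd4 was therefore the 1 Frizzled gene of 7 with a lower signal in D351, also with the spike-control scaling, where 6 of 7 were above 0.

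**Figure D2:**
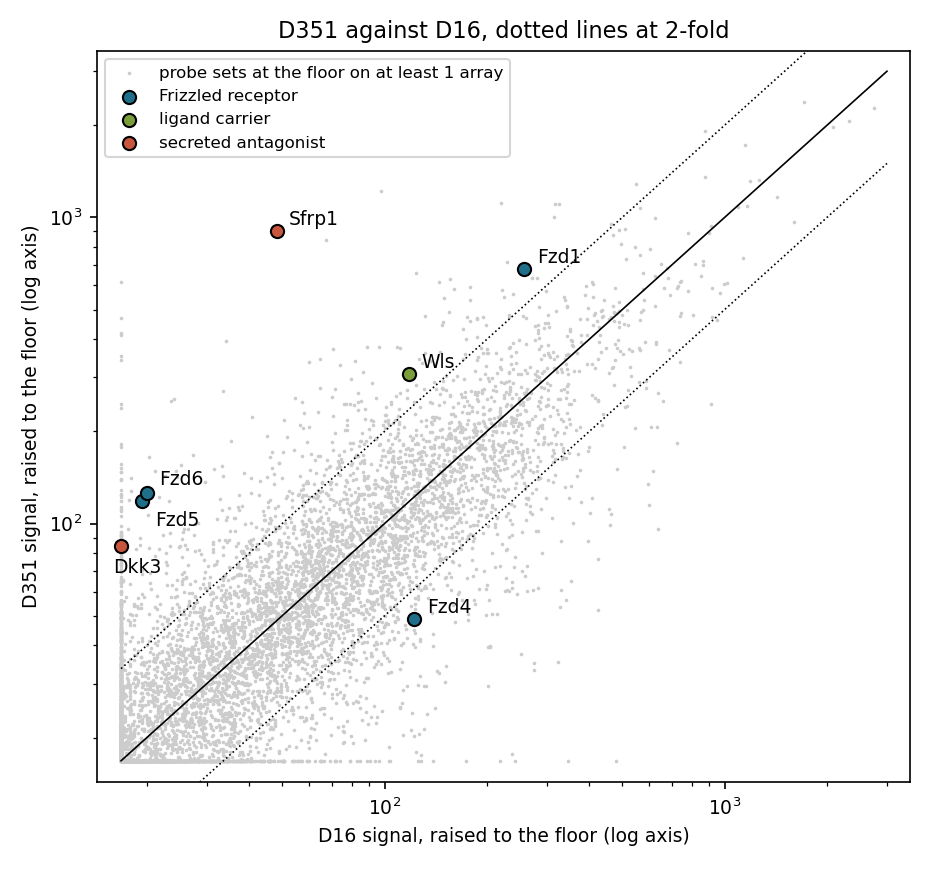
Signal in D351 against D16 for all probe sets at the floor on at least 1 array (grey), both axes logarithmic and raised to the floor of 16.8, with receptors, carrier and antagonists marked. Sfrp1, Fzd5, Fzd6, Fzd1, Wls and Dkk3 lie above the upper dotted 2-fold line and Fzd4 lies below the lower one.

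Among genes at the floor in both clones, 8.12% of 4065 were higher in D351 by 2-fold or more and 8.44% lower by as much. In the order of their ratios towards D351, Sfrp1 stood at rank 1, Fzd6 at rank 11, Fzd5 at rank 13, Fzd1 at rank 154 and Wls at rank 156 of these 4065 genes. Fzd4 stood at rank 176 in the order towards D16. Because the genes were chosen on this contrast, the ranks describe them and carry no weight as evidence. Fzd5 and Fzd6 had ratios that differed by less than 0.50 (log2), the SD of the log2 ratio per probe set. So did Fzd1 and Wls, and the order within each pair is not resolved. That SD comes from 1113 genes with at least a pair of measured probe sets and covers probe design on these arrays, not the spread between cultures.

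Wls, the carrier that escorts Wnt ligands to the plasma membrane, read 117.8 in D16 and 308.0 in D351. Its signal was 2.61-fold higher in D351 (log2 1.39), and both values were well above the floor. Of the other ligand export genes on the array, Tmed5, a cargo receptor of the early secretory pathway, went the other way with 949.9 and 461.4 (2.06-fold lower in D351, and short of 2-fold at log2 -0.52 with the spike-control scaling), Mtmr6 read 288.4 and 379.6 (log2 0.40), and Tmed2 read 18.7 and 15.9 (log2 at most -0.15). Of the 4 export genes 2 lay above 0 as deposited, and 3 did with the spike-control scaling.

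Of the ligands themselves the array gave almost no information. Of 24 listed Wnt and R-spondin genes 3 were on it, and 1 of these reached the floor. Wnt7b read 11.0 in D16 and 19.1 in D351 (log2 at least 0.19), while Wnt2 (12.8 and 6.8) and Rspo3 (0.4 and 1.3) were under the floor in both clones.

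The secreted antagonists fell into a pair with large differences and a pair without measurable signal. Sfrp1 read 48.2 in D16 and 900.3 in D351, both above the floor. Its 18.7-fold higher signal in D351 (log2 4.22) was, in the values as deposited, the largest ratio towards D351 among genes at the floor in both clones, and it stayed between 3.84 and 4.75 over 11 processing settings. Dkk3, a divergent Dickkopf protein whose effect on Wnt signalling varies with the cell type, read 11.0 in D16 and 84.7 in D351. With the D16 value raised to the floor this is at least 5.04-fold higher in D351 (log2 at least 2.33). The bound dropped below 2-fold with the floor at the 75th percentile, at a log2 ratio of at least 0.66.

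Sfrp5, a relative of Sfrp1 known from gut and fat tissue, read 4.4 in D16 and 1.0 in D351. Wif1 read 4.4 in D16 and 0.4 in D351. Both were under even the 25th percentile of all signals (4.6) in both clones, so no direction is given for them. Of the 6 other antagonist genes on the array, Notum, a secreted deacylase of Wnt ligands, read 58.9 and 51.4 (log2 -0.20), and Shisa3, of a family that holds back Frizzled maturation, read 27.6 and 10.4 (log2 at most -0.72). With the spike-control scaling 1 of these 2 genes was above 0. The remaining 4, Dkkl1, Shisa2, Sostdc1 and Trabd2b, were under the floor in both clones. Sfrp1 and Dkk3, chosen on this contrast, were thus higher in D351 by 2-fold or more. Of the 2 other antagonist genes with a ratio 0 were, beside 9.5% of all genes, and the 4 under the floor could not show a difference.

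Axin2, the target readout, read 5.5 in D16 and 3.1 in D351 and had no ratio. With the floor lowered to 4.6 its log2 ratio was at most -0.26, a bound that does not reach 2-fold. A level under the floor on both arrays says that this probe set gave no usable signal, and not that the transcript was absent. Further targets and feedback genes of beta-catenin were read from a list of 41, of which 11 were on the array and 7 had a ratio. Their median log2 ratio was -0.21, and 1 of the 7 lay above 0. Of the 7, 0 were higher in D351 by 2-fold or more and 1 lower by as much, near the 9.5% and 8.58% of all genes.

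The 1 target gene above 0 was Lef1, both a target and a TCF/LEF factor, with 34.6 in D16 and 65.6 in D351 (log2 0.92). Sox9, a transcription factor of cartilage and progenitor cells, read 125.3 and 58.1 (2.16-fold lower in D351, and short of 2-fold at log2 -0.59 with the spike-control scaling), with 56.7 and 40.5 on another probe set. The feedback inhibitors Nkd1 (2.5 and 2.9) and Nkd2 (5.0 and 14.6) were, like Axin2, under the floor in both clones, as was the receptor-degrading ligase Rnf43 (9.8 and 5.7). Bambi, Cd44, Jag1, Notum and Prickle1 had log2 ratios between -0.40 and -0.09. Scaled to the spike controls, the target list had a median of 0.26 over 8 measured genes, 7 of them above 0, beside a median of 0.45 for all genes, so the sign of these small ratios depends on the scaling.

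Set side by side, 4 of the 7 Frizzled genes were higher in D351 by 2-fold or more (median log2 1.37). Of the 7 target genes with a ratio 0 were, beside 9.5% of all genes. With the spike-control scaling these counts were 6 of 7 and 1 of 8, beside 21.7% of all genes. For a list this small, both target counts were near these shares. The difference between the lists was not tested, since each list was read on 1 array per clone and the receptors were partly chosen for their ratios. Without the chosen receptors, 1 of the 3 Frizzled genes, Fzd7, reached 2-fold as deposited, beside 9.5% of all genes. With the spike-control scaling 3 of 3 did, beside 21.7% of all genes, so this count depends on the scaling.

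**Figure D3:**
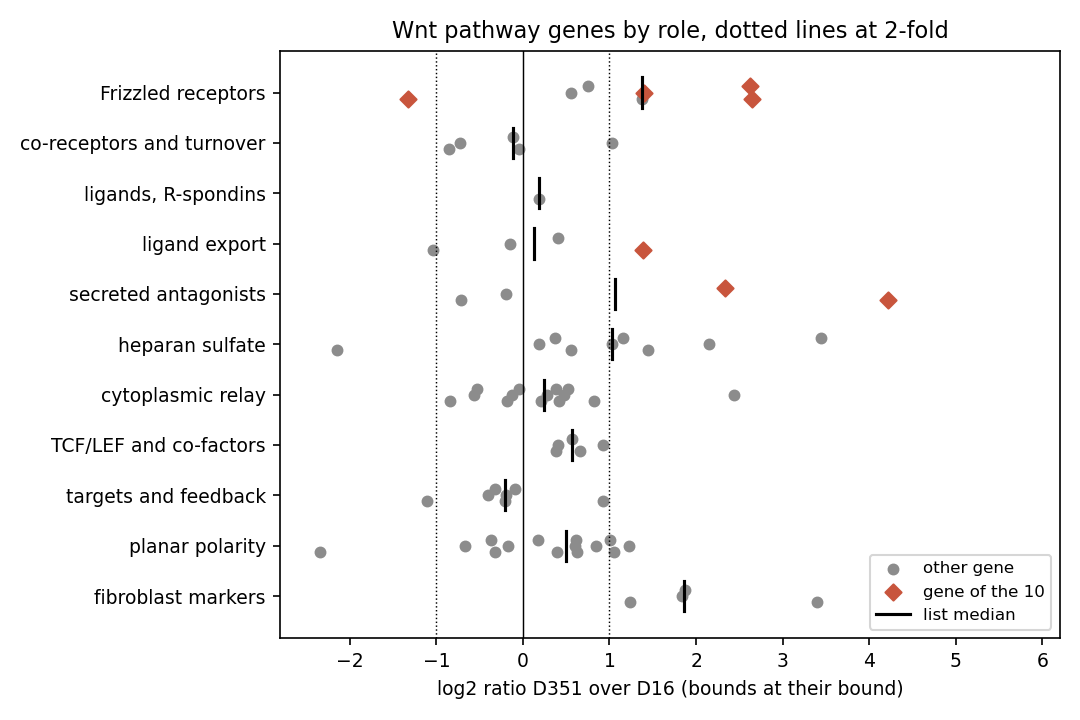
Log2 ratio of D351 over D16 for every measured gene of each Wnt role list and of the embryonic fibroblast markers, with bounds at their bound, diamonds for the 10 chosen genes and bars at list medians. Frizzled genes lie mostly to the right (median 1.37), targets and feedback genes mostly just left of 0 (median -0.21, or 0.26 scaled to the spike controls), and all 4 fibroblast markers lie right of the 2-fold line.

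Co-receptors and genes of receptor turnover went both ways. Of 18 listed, 6 were on the array and 5 had a ratio, with a median log2 ratio of -0.11 (0.32 scaled to the spike controls, beside 0.45 for all genes). Kremen1, a receptor for Dickkopf proteins, read 59.9 and 122.3, which is 2.04-fold higher in D351. The other 4 were below 0 as deposited, namely the R-spondin receptor genes Lgr4 (287.2 and 159.7, log2 -0.85) and Lgr6 (18.0 and 17.5, log2 -0.04), the receptor kinase gene Ror1 (92.1 and 55.6, log2 -0.73) and Adgra2 (190.2 and 175.8, log2 -0.11).

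Inside the cell, 17 of 31 listed relay genes were on the array and 14 had a ratio, with a median log2 ratio of 0.25. As deposited, 1 of the 14 passed 2-fold, beside 9.5% of all genes higher in D351 and 8.58% lower. This gene was Dact1, a Dishevelled-binding regulator, with 15.4 in D16 and 91.1 in D351 (at least 5.42-fold higher in D351). Its other probe set was under the floor in both clones (4.8 and 3.9), so the ratio rests on 1 probe set. Gsk3b, the kinase that marks beta-catenin for degradation, read 90.9 and 105.5 (log2 0.21), while 6 of the 14 relay genes lay below 0. All 5 measured TCF/LEF factors and co-factors lay above 0, with log2 ratios from 0.38 (Bcl9) to 0.92 (Lef1). As deposited, 0 of these 5 reached 2-fold, beside the same 9.5% of all genes. Scaled to the spike controls, 4 of the 14 relay genes (median 0.64) and 3 of the 5 TCF/LEF factors and co-factors (median 1.09) were higher in D351 by 2-fold or more, beside 21.7% of all genes.

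Glypicans, syndecans and heparan sulfate enzymes, which hold and present Wnt ligands at the cell surface, had a median log2 ratio of 1.03 over 9 measured genes. Of these, 5 were higher in D351 by 2-fold or more and 1 lower by as much, beside 9.5% and 8.58% of all genes. Under the spike-control scaling, 6 were higher and 1 lower (median 1.55), beside 21.7% and 3.28% of all genes (median 0.45). Sulf1, a sulfatase that trims heparan sulfate, read 1.3 in D16 and 181.7 in D351 (at least 10.8-fold higher in D351), and its other probe set read 1.2 and 139.0. The syndecan genes Sdc3 and Sdc4, which encode surface heparan sulfate proteoglycans, had opposite directions. Sdc3 read 73.9 and 328.9 (4.45-fold higher in D351), and Sdc4 read 130.8 and 29.5 (4.43-fold lower) on a probe set with the ending _s, a design shared by related transcripts. Hs6st2, a heparan sulfate sulfotransferase gene, was at least 2.72-fold higher in D351 (16.4 and 45.7).

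Over all 10 Wnt role lists, 90 of 217 genes were on the array and 67 had a ratio. Of these, 17 were higher in D351 by 2-fold or more and 5 lower by as much, with a median log2 ratio of 0.39. Without the 10 chosen genes, 11 of 60 (18.3%) reached 2-fold towards D351 and 4 (6.67%) towards D16, with a median of 0.37, beside 9.5% and 8.58% of all genes and their median of -0.01. The lists were drawn up with earlier results of these arrays known, and these shares describe them without a test. The 11 became 6 of 46 with the higher floor of 53.5 and 6 of 60 with a pseudocount of 16, beside 7.12% and 7.24% of all genes. Scaled to the spike controls, the counts over all Wnt genes became 29 of 68 higher and 2 lower, and those of the 10 genes 6 higher and 0 lower, beside 21.7% of all genes higher and 3.28% lower.

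Markers of other cell types were read on the same arrays. Of 26 embryonic fibroblast markers, the cell type of the feeder layer, 4 were on the array. All 4 passed 2-fold towards D351, as deposited and with the spike-control scaling, beside 9.5% and 21.7% of all genes. Aspn (3.6 and 177.4) and Col5a2 (12.4 and 60.1) were under the floor in D16, so their ratios are bounds. The stromal genes Prrx1 (149.3 and 546.8) and Cd248 (238.9 and 564.0) were clearly above the floor in D16 as well. The signals of all probe sets of these 4 genes summed to 444.8 in D16 and 1448.5 in D351. The part of such cells in the higher Sfrp1, Dkk3 and Frizzled signals was not tested, and in RNA from whole cultures more cells of a type and more RNA per cell cannot be told apart. Of 15 blood and macrophage markers 0 were on the array, and the 2 of 14 epithelial markers on it, Grhl2 and Ocln, were under the floor in both clones.

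**Figure D4:**
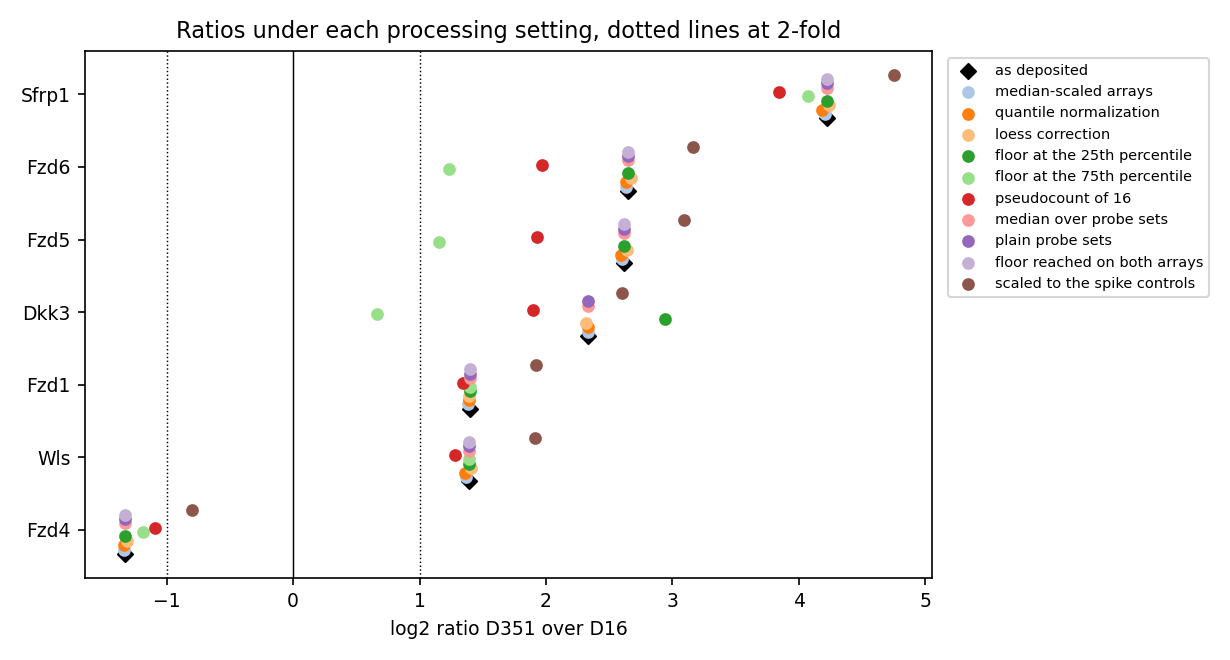
Log2 ratio of D351 over D16 of the 7 genes with a ratio under the values as deposited (black diamonds) and each other processing setting (coloured circles), with dotted lines at 2-fold. Sfrp1 lies between 3.84 and 4.75 throughout, Dkk3 reaches 0.66 with the highest floor and Fzd4 -0.80 with the spike controls.

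Direction was the same under every setting that gave a ratio for these 7 genes. Sfrp1, Fzd1, Fzd5, Fzd6 and Wls were at least 2-fold higher in D351 in all 11 settings compared at the level of a gene. Dkk3 was so in 9 of 10 settings and had no ratio where the floor had to be reached on both arrays. Fzd4 was at least 2-fold lower in 10 of 11. These settings all start from the same pair of arrays, so they show the effect of processing and not that of another culture.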

How the data were processed

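Each clone's total RNA was measured on 1 array, and the sample titles gave the groups. The deposited values are signal intensity, linear and processed by the authors. The software, background correction and presence calls behind them are not given in the sources used here. The values were used as deposited, which are relative to the bulk of each array.

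After leaving out 66 controls, 12411 probe sets remained, of which 10581 had exactly 1 symbol in GEO's platform annotation, 178 had several and 1652 were unnamed here. The brightest probe set by mean signal stood for a gene, with a floor of 16.8 and a size rule of 2-fold. No p-value was computed. Ratio code was tested on simulated data.

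The members and lists were chosen with earlier results of these data known. The rule named every member, every other Frizzled, Sfrp, Frzb and Dickkopf gene, and up to 4 genes past 2-fold from each other Wnt list. Further genes were named, after their values were seen, mostly to spell out a small count, and Gsk3b was named outside the rule. Promoter sequences came from RefSeq (GRCm38.p6). Alternatives covered normalization, floor, pseudocount, probe set choice and size rule. Python 3.11.15, numpy 2.4.6, pandas 2.3.3 and statsmodels 0.14.6 were used.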

Additional observations from a re-analysis of the deposited data

How the results depend on the processing

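Median scaling, quantile normalization, loess correction (span 0.3), a floor at the 25th percentile, the median over probe sets, plain probe sets alone and the floor reached on both arrays kept each count of genes past 2-fold within 1.5 times its value as reported. With the floor at the 75th percentile, 11 Wnt genes (6 without the 10 chosen genes) passed 2-fold towards D351, and with a pseudocount of 16 it was 6 without the chosen genes; values near the floor are pulled together by both. A size rule of 1.5-fold gave 10 Wnt genes lower in D351 and, without the chosen genes, 19 higher and 9 lower, beside 19.3% and 20.4% of all genes. At 3-fold these were 7 higher and 2 lower over all Wnt genes, 3 and 2 of 60 without the chosen genes, beside 3.6% and 2.79% of all genes, and 0 of the chosen genes lower. Scaling to the spike controls, added after the data were seen, gave 29 higher and 2 lower, 23 and 2 without the chosen genes, and 0 of the chosen genes lower, with a Wnt median of 0.90 against 0.45 for all genes, of which 21.7% were higher and 3.28% lower. The ratios of the 7 genes and the Wnt medians kept their sign, but under this scaling the medians of the target list (-0.21) and the co-receptor list (-0.11) became 0.26 and 0.32. No paired analysis was possible because each clone had 1 array, and for the same reason no array could be left out. Signals near the floor, such as Fzd5 and Fzd6 in D16, limit the size of their ratios.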

Other observations

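Genes of planar polarity and other beta-catenin-independent Wnt responses went both ways as deposited. Of 27 listed, 16 were on the array and 14 had a ratio, with a median log2 ratio of 0.50 (-0.01 for all genes). Of these, 3 were higher in D351 by 2-fold or more and 1 lower by as much, beside 9.5% and 8.58% of all genes. Scaled to the spike controls, 6 were higher by 2-fold or more and 1 lower by as much, beside 21.7% and 3.28% of all genes. In that scaling 12 of 14 lay above 0, with a median of 0.89 beside 0.45 for all genes. Prickle2, a cytoplasmic polarity protein, read 58.6 in D16 and 136.1 in D351 (2.32-fold higher in D351), while another Prickle2 probe set was under the floor in both clones (8.1 and 7.2). Map3k7, which encodes the kinase TAK1, read 35.0 and 72.4 (2.07-fold higher in D351). Daam1, a formin that binds Dishevelled, read 94.3 and 189.9 (2.01-fold higher in D351), with 25.8 and 50.5 on another probe set. Plcb1, a phospholipase C of calcium signalling, had the opposite direction with 84.9 and 12.6 (at least 5.05-fold lower in D351).

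Of 14 smooth muscle markers 8 were on the array and 3 had a ratio. Mylk, the myosin light chain kinase, read 21.1 in D16 and 148.5 in D351 on its brightest probe set, with 1.1 and 50.9 on a _g probe set and 3.1 and 1.9, under the floor in both clones, on the third. Cald1 read 874.9 and 1357.6, and Myh11 read 36.8 and 35.6. Of 15 endothelial markers 3 were on the array, and Flt1, a receptor for vascular endothelial growth factor, was the 1 at the floor, with 10.3 and 44.5 (at least 2.65-fold higher in D351).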
